A study of Branchiostoma lanceolatum with 24 samples.

Results

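These results concern European amphioxus (Branchiostoma lanceolatum) embryos that met SU5402 at 5 h post fertilization (hpf) and were collected 6 h later, at 11 hpf. The comparison holds 4 RNA-seq libraries of the 24 in the series. They are 2 libraries of embryos in 50 µM SU5402 and 2 of embryos in 0.1% DMSO, and they were chosen by the treatment, start and stage given in the sample labels. In the early series, embryos treated from 5 hpf were also collected at 8 and 14 hpf, again with 2 SU5402 and 2 DMSO libraries each, which makes 12 early libraries in 6 groups. The other 12 libraries come from embryos treated from 15.5 hpf. Each library is a mix of whole embryos from dishes of filtered sea water. The labels name no strain, parents or spawning, and do not say whether the SU5402 dishes also held DMSO. In whole embryos, fewer cells of a type and less RNA per cell cannot be told apart.

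Fibroblast growth factors (FGFs) are secreted ligands that bind tyrosine kinase receptors at the cell surface. The receptors then signal through RAS and the MAP kinases to transcription factors of the ETS family. SU5402 blocks the kinase of FGF receptors and is also known to act on the related VEGF and PDGF receptors. In amphioxus, a cephalochordate close to the base of the chordates, FGF signalling is known for its role in forming the most anterior somites. In animal embryos at large, RNAs laid down in the egg are cleared while the embryo's own genes come on, so the RNA of successive early stages differs widely.

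The counts are reads per transcriptome contig, an assembled piece of transcript, and 96094 contigs were counted. The deposited table pairs no contig with a gene, and 0 of its identifiers were found among the 29133 genes of the RefSeq table for klBraLanc5.hap2. Members of the FGF pathway, tissue markers and sequences were therefore not analysed here. Contigs are given by identifier, at most 2 in each direction for each test. Several contigs can stem from 1 gene, so these numbers do not count genes. Near-identical gene copies and overlapping genes on opposite strands can share reads, because the library protocol does not mark strand.

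The SU5402 libraries held 18924324 and 14885597 reads, and the DMSO libraries 15187365 and 18051154. Depth was thus alike in both groups. The 8 early libraries at 8 and 14 hpf were deeper, at 29704193 to 39988564 reads. Per the labels, libraries of 6 h exposure had 15 PCR cycles and those of 3 and 9 h had 12, so cycle number is the same within each comparison of SU5402 with DMSO but goes with stage. ContigAmph3515, the most abundant contig (picked out by its values), took 13.6% and 11.9% of the reads in SU5402 embryos and 8.00% and 7.95% in DMSO embryos.

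At 11 hpf the DMSO pair had the widest spread of the early replicate pairs. The biological coefficient of variation, the spread beyond counting error, was 23.7% in the SU5402 pair and 30.2% in the DMSO pair. The other 4 early pairs lay between 25.6% and 28.6%, so the 2 pairs at 11 hpf were the lowest and the highest of the 6. Thinning every library to 14885597 reads left them at 23.3% and 29.8%, against 22.9% to 26.2% in the other early pairs. After thinning the DMSO pair was still the highest, while the SU5402 pair was no longer the lowest. In the 6 groups treated from 15.5 hpf the same measure was 3.43% to 7.63%.

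The spread depended on level. Levels are given as CPM, read counts scaled to a common library size. Among contigs of 1 to 10 CPM, the log2 ratio of the 2 replicates had a scaled median absolute deviation of 0.51 in SU5402 and 0.56 in DMSO embryos. Over 100 CPM it was 0.18 in SU5402 and 0.20 in DMSO embryos. Of the contigs at 10 CPM or more, 1.80% of 10948 differed over 2-fold between the SU5402 replicates, and 3.39% of 11113 between the DMSO replicates. Few abundant contigs therefore differed between replicates by the 2-fold size that is used below.

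**Figure D1:**
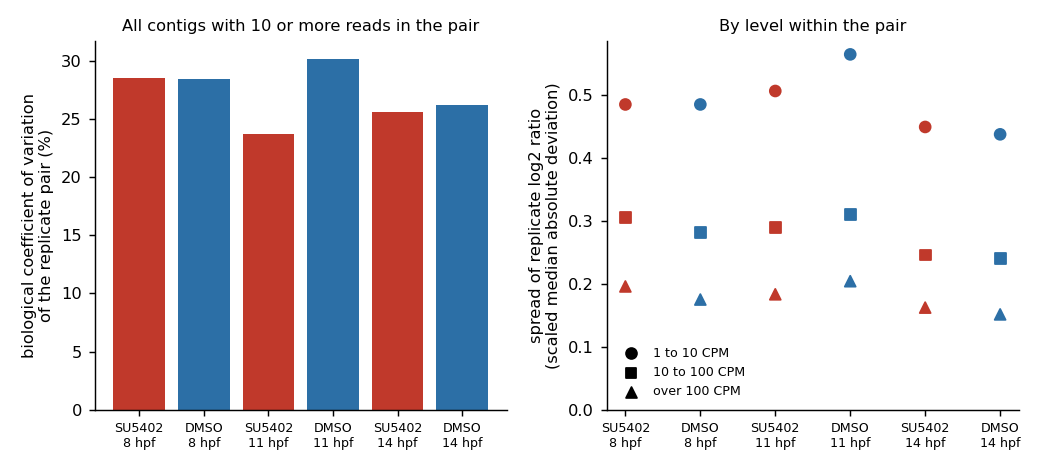
Spread between the 2 replicates of each early group, with SU5402 in red and DMSO in blue. Bars on the left give the biological coefficient of variation in percent; symbols on the right give the scaled median absolute deviation of the replicate log2 ratio for contigs of 1 to 10, 10 to 100 and over 100 CPM. The pairs at 11 hpf hold the lowest bar, 23.7%, and the highest, 30.2%, and in every pair the spread was smallest over 100 CPM.

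Replicate differences were shared between groups. Over the 11221 contigs with a mean over 10 CPM in the early libraries, the log2 ratio of replicate 2 to replicate 1 in the SU5402 pair correlated with that in the DMSO pair at 11 hpf (Pearson r = 0.79, a description over contigs, which are not independent). The same ratio in the SU5402 pair at 14 hpf ran the other way, with r of -0.72 against the SU5402 pair and -0.81 against the DMSO pair at 11 hpf. In the other 3 early pairs r with the 2 pairs at 11 hpf was 0.64 to 0.80. The labels do not say what the replicate number marks. It was not used in the model, so the spread given above includes differences that both groups share.

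Treated and control embryos stood farther apart than replicates did. Over these 11221 contigs the root mean square log2 difference was 0.41 between the SU5402 replicates and 0.50 between the DMSO replicates. The 4 pairings of a SU5402 with a DMSO library at 11 hpf gave 0.76 to 0.92. On the first principal component of the 12 early libraries, which held 69.2% of the variance and followed stage, the SU5402 libraries at 11 hpf lay at 12.1 and 11.0. The DMSO libraries at 11 hpf lay at -37.2 and -36.5, those at 8 hpf at 82.3 and 81.1, and those at 14 hpf at -92.4 and -89.6. SU5402 libraries of 8 hpf lay at 103.7 and 99.9, beyond the DMSO libraries of 8 hpf. Those of 14 hpf lay at -63.3 and -71.3, so SU5402 libraries were above the DMSO libraries of the same stage each time. SU5402 embryos of 11 hpf thus lay between the DMSO embryos of 8 and 11 hpf on this axis. On the second component, with 11.6% of the variance, they lay at 44.3 and 37.0, against -17.1 and -19.2 in DMSO embryos of 11 hpf. The 6 SU5402 libraries were all above 0 on it and the 6 DMSO libraries all below.

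**Figure D2:**
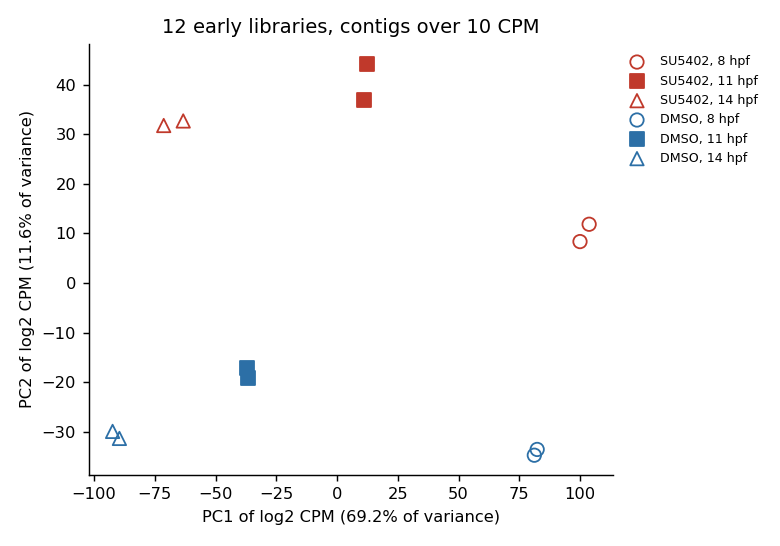
First 2 principal components of log2 CPM for the 12 early libraries, over the 11221 contigs above 10 CPM, in arbitrary units. Each symbol is 1 library, red for SU5402 and blue for DMSO, with filled squares for 11 hpf; the SU5402 squares lie near 12 on the first axis, between the DMSO libraries of 8 hpf and 11 hpf, and above all DMSO libraries on the second.

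After 6 h in SU5402, 10694 contigs rose and 6903 fell of the 77193 tested (edgeR quasi-likelihood test on the 12 early libraries, Benjamini-Hochberg adjusted p under 0.05). These are 13.9% and 8.94% of the contigs tested, 22.8% in all. Most rises were large, and 92.4% of the risen contigs changed more than 2-fold. Of the fallen contigs 46.8% did so, and 7.45% fell more than 4-fold. The fitted log2 fold change had a median size of 2.92 among the risen and 0.96 among the fallen contigs. These sizes went with level, and among contigs over 100 CPM in the other 20 libraries both medians were 0.69. Among the risen, 1660 contigs had 0 reads in both DMSO libraries, for which no fold can be measured. With these set at the bound that 3 reads over the DMSO pair would give, the median of the risen contigs was 2.62, and 17.8% of them rose more than 16-fold. A further 2734 risen contigs had 1 to 3 reads over the DMSO pair, so their folds rest on few control reads.

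The split between rises and falls depended on scaling and on the filter. Rises were 60.8% of the calls here and 79.7% with scaling factors from contigs over 10 CPM, with 14172 risen and 3608 fallen. Over all contigs tested the median log2 fold change was 0.06, and it was 0.31 on that scale and 0.18 with library totals. With no filter 95422 contigs were tested, of which 9523 rose and 8389 fell. A stricter filter gave 8690 risen and 5596 fallen. Leaving out SU5402 replicate 1 gave 5304 risen and 2876 fallen, and leaving out SU5402 replicate 2 gave 8035 and 4324. Without DMSO replicate 1 the counts were 6263 and 6223, and without DMSO replicate 2 they were 5276 and 5351, so that rises and falls were nearly equal in number with either DMSO library alone. Without the 14 hpf libraries, whose SU5402 replicates run opposite to the other pairs, 9696 contigs rose and 5158 fell. Whether replicates are separate spawnings or dishes is not stated in the labels. The p-values therefore rest on library-to-library spread, which may be technical.

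The 2 contigs that rose with the smallest p had few reads in control embryos. ContigAmph24501 stood at 172 and 181 CPM in the SU5402 libraries and at 1.69 and 1.09 CPM in the DMSO libraries. The log2 ratio was 7.01 (SE 0.18, adjusted p = 1e-07). ContigAmph54911 had 642 and 523 reads with SU5402, or 32.2 and 31.7 CPM, and 2 reads in each DMSO library, or 0.14 and 0.11 CPM. Its log2 fold change was 7.99 (SE 0.25, adjusted p = 4.1e-07), where the 4 control reads limit the precision. For both contigs the SU5402 libraries lay above the DMSO libraries at 8, 11 and 14 hpf, and at 21.5 hpf after 6 h of late treatment.

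The 2 falls of smallest p were in contigs well expressed in control embryos. ContigAmph7823 stood at 597 and 570 CPM in SU5402 and at 1724 and 1668 CPM in DMSO embryos (log2 fold change -1.54, SE 0.084, adjusted p = 1e-05). ContigAmph23744 stood at 16.3 and 17.4 CPM in SU5402 and at 98.3 and 82.7 CPM in DMSO embryos (log2 fold change -2.43, SE 0.14, adjusted p = 1.1e-05). In DMSO embryos ContigAmph23744 kept a similar level at all 3 stages, with means of 95.0, 90.5 and 95.6 CPM at 8, 11 and 14 hpf. With SU5402 it averaged 18.5, 16.8 and 32.9 CPM at these stages, below DMSO each time.

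**Figure D3:**
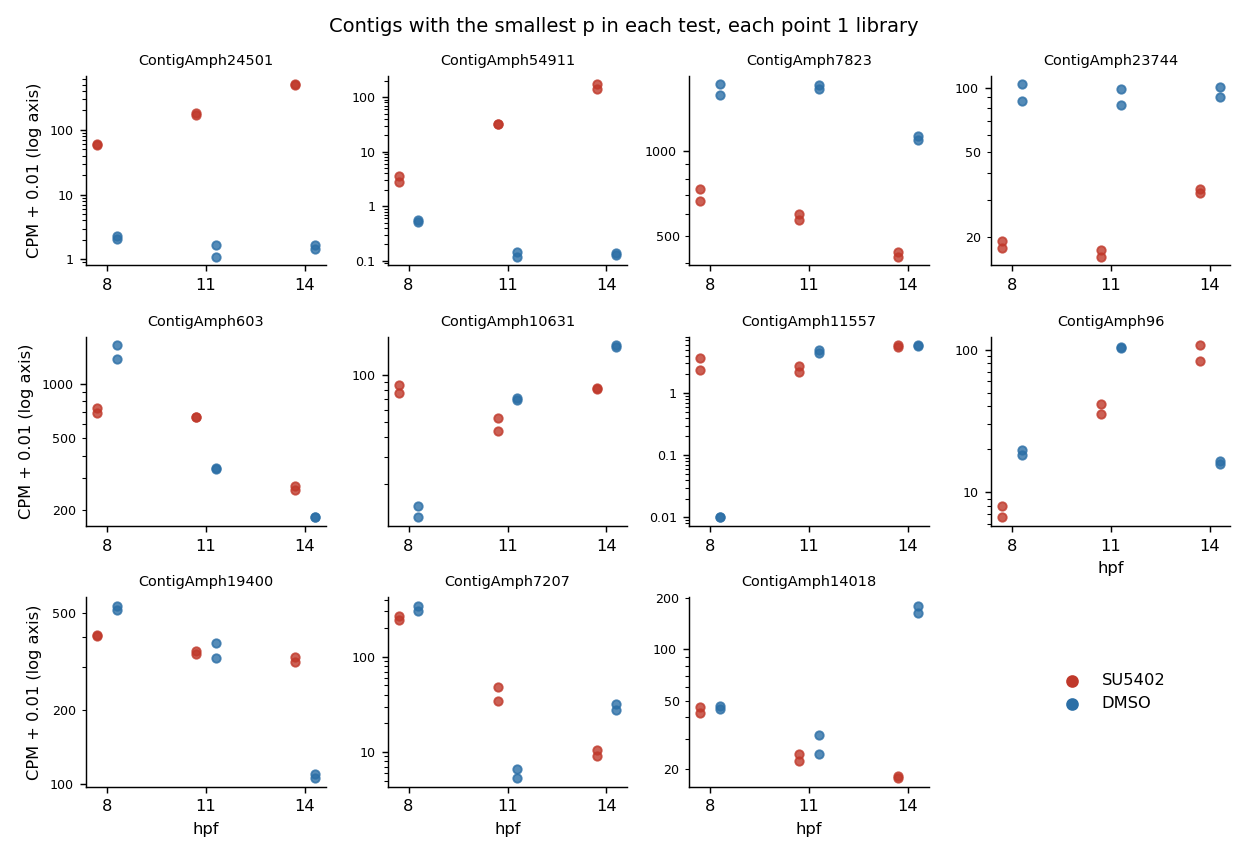
CPM in each of the 12 early libraries for the contigs with the smallest p in each test, on a log axis after adding 0.01, against hours post fertilization. Each point is 1 library, SU5402 in red to the left and DMSO in blue to the right; ContigAmph24501 is high in all SU5402 libraries, and ContigAmph7207 is the higher with SU5402 at 11 hpf and the lower at 14 hpf.

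Rare contigs made up most of the rises and abundant contigs most of the falls. Levels were taken from the 20 libraries outside the comparison, so that the libraries compared did not set them. These 20 include other libraries of treated embryos. The filter did use the libraries compared, so a contig rare elsewhere could enter the test through the treated embryos. That favours rises under 1 CPM, and the level classes were not recomputed without the filter. Of 32569 contigs under 1 CPM, 19.7% rose and 1.05% fell. Of 32222 contigs at 1 to 10 CPM, 10.4% rose and 8.63% fell. Of 10765 contigs at 10 to 100 CPM, 7.78% rose and 28.4% fell, and of 1637 contigs over 100 CPM 6.05% rose and 44.0% fell. The shares stand against 13.9% and 8.94% of all contigs. Few reads make a fall hard to detect for rare contigs. No test was run between the 4 level classes.

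By level class, the median log2 fold change was 0.64 under 1 CPM, -0.09 at 1 to 10 CPM, -0.28 at 10 to 100 CPM and -0.34 over 100 CPM. The median size among risen and fallen contigs was 3.75 and 2.01 under 1 CPM and 1.90 and 1.16 at 1 to 10 CPM. It was 1.04 and 0.80 at 10 to 100 CPM, and 0.69 for both over 100 CPM. The shares of abundant contigs depended on scaling. With scaling factors from contigs over 10 CPM, which centre these contigs by construction, 264 of those over 100 CPM rose and 416 fell, against 99 and 721 above. Under 1 CPM the same scale gave 7693 risen and 183 fallen contigs.

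**Figure D4:**
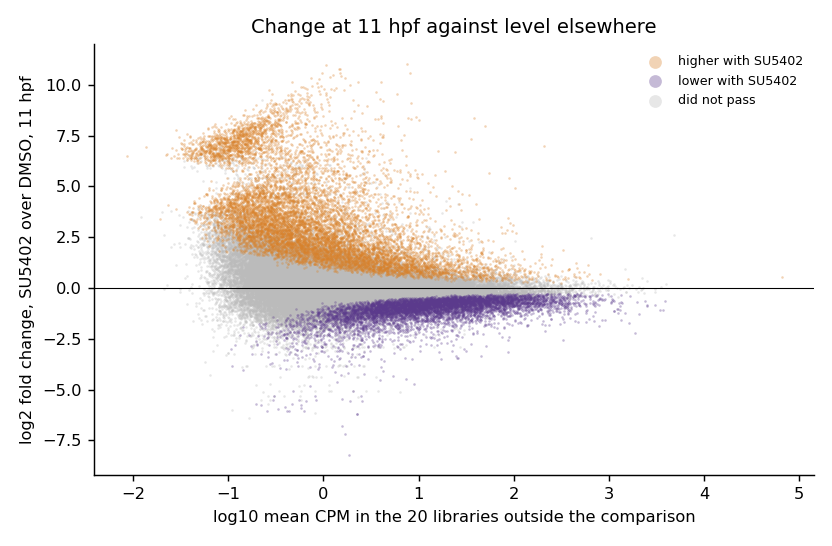
Log2 fold change of SU5402 over DMSO embryos at 11 hpf against the log10 mean CPM in the 20 libraries outside the comparison, with 1 point per contig tested. Orange contigs rose, purple contigs fell and grey ones did not pass; the separate cloud at the upper left holds mostly contigs with 0 reads in both DMSO libraries, whose fold depends on the fit.

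More contigs were detected in SU5402 than in control embryos. At a common depth of 14885597 reads, 52932 and 53570 contigs had 10 or more reads in the SU5402 libraries, against 44174 and 45317 in the DMSO libraries. The counts at 8 hpf were 47696 and 48181 in SU5402 and 43029 and 44101 in DMSO embryos, and at 14 hpf 52070 and 49627 against 45468 and 46611. The SU5402 libraries were above the DMSO libraries at each stage. With 2 libraries in each group an exact permutation test cannot give p below 0.333. Without thinning, 58229 and 53570 contigs reached 10 reads in SU5402 libraries at 11 hpf, against 44505 and 48519 in DMSO libraries.

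A set of 764 contigs had 10 or more reads in each SU5402 library and 0 reads in both DMSO libraries at 11 hpf, where the DMSO pair held 33238519 reads. The opposite was seen at 1 contig, ContigAmph11419, singled out by this count, with 0 reads in both SU5402 libraries and 25 and 20 reads in the DMSO libraries. The 764 contigs had a median of 38 reads in the SU5402 pair. In libraries that did not choose them, 505 (66.1%) had 10 or more reads in each SU5402 library at 8 hpf, against 75.8% of all contigs tested. At 14 hpf 566 (74.1%) did so in SU5402 embryos, against 77.8% of all contigs tested. The SU5402 shares were thus a little below those of all contigs. In the DMSO libraries, 8 of the 764 (1.05%) reached 10 reads in each at 8 hpf, against 67.0% of all contigs tested, and 2 (0.262%) did so at 14 hpf, against 69.4%. At 0 in all 4 of these DMSO libraries were 140 of the 764. The 764 could pass the filter through SU5402 libraries alone, and all contigs tested were not matched to them by level. The shares set side by side here are therefore a description.

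Many of the risen contigs were low in control embryos at the other stages too. Of the 10694 risen contigs, 64.4% stayed under 1 CPM in all 4 DMSO libraries of 8 and 14 hpf. This share was 2.61% among the fallen contigs and 37.2% among all contigs tested. Contigs low in DMSO embryos could enter the test through SU5402 libraries, which favours low control levels among the risen. The share of reads held by called contigs also differed between the groups. Risen contigs held 22.9% and 20.5% of the reads of the SU5402 libraries and 11.7% and 11.7% of the DMSO libraries. Fallen contigs held 23.1% and 24.2% in SU5402 and 36.6% and 36.7% in DMSO embryos. The same libraries chose these contigs, so the read shares are a description. ContigAmph3515 is among the risen (log2 fold change 0.56, SE 0.083, adjusted p = 0.0013).

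SU5402 embryos of 11 hpf were less far along the changes that control embryos pass through. Contigs were grouped by their change from 8 to 14 hpf in DMSO embryos, with 4 libraries that are in neither group compared at 11 hpf. These libraries do enter the filter, the scaling and the estimate of the spread of the shared fit, so the calls with age and with SU5402 are not independent. In the test of age 15879 contigs rose and 15652 fell, 20.6% and 20.3% of those tested and 40.8% in all. Of the contigs that rose with age, 28.5% fell with SU5402 at 11 hpf and 3.95% rose, with a median log2 fold change of -0.57. Of the contigs that fell with age, 20.3% rose with SU5402 and 3.82% fell, with a median of 0.38. Among the 45662 contigs not called with age, 15.1% rose and 3.89% fell, with a median of 0.19. Over all contigs these values were 13.9%, 8.94% and 0.06.

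Read the other way, 65.6% of the 6903 contigs that fell with SU5402 rose with age in control embryos, and 8.66% fell with age. Of the 10694 that rose with SU5402, 29.8% fell with age, 5.86% rose and 64.4% were not called. Of all contigs tested, 20.6% rose with age, 20.3% fell and 59.2% were not called, so that the share of risen contigs without a called change lay near that of all contigs. With scaling factors from contigs over 10 CPM, 16.8% of the contigs that rose with age fell with SU5402 and 30.2% of those that fell with age rose, so the opposition remained while its balance moved.

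The position along these changes can be given per library for contigs with a change over 4-fold from 8 to 14 hpf in DMSO embryos. Each library was placed between the DMSO mean at 8 hpf, set at 0%, and that at 14 hpf, set at 100%, by the median over contigs of log2 CPM. On the 7055 rising contigs the SU5402 libraries of 11 hpf stood at 37.4% and 38.1%, and the DMSO libraries at 60.8% and 60.7%. On the 7078 falling contigs they stood at 26.4% and 31.8% with SU5402, against 56.9% and 63.2% in DMSO. The groups did not overlap on either set. At 8 hpf the SU5402 libraries stood at 2.25% and 0.0821% on the rising and at -11.1% and -1.63% on the falling contigs. At 14 hpf they stood at 81.4% and 84.0% on the rising and at 71.0% and 73.9% on the falling contigs. The DMSO libraries of 8 and 14 hpf chose these contigs and set the 0% and 100% ends. Only at 11 hpf did the controls do neither, so the SU5402 positions at 8 and 14 hpf are a description. Across 3 other scalings the SU5402 mean at 11 hpf was 36.6% to 43.7% on rising and 21.0% to 30.2% on falling contigs, while the DMSO mean was 58.2% to 62.3%. The position is a median, and single contigs departed from it. It rests largely on contigs with few reads. Median levels of the rising contigs were 0.27 and 0.29 CPM in the DMSO libraries of 8 hpf and 2.67 and 2.71 CPM in those of 14 hpf. For the falling contigs they were 1.80 and 1.57 CPM at 8 hpf and 0.18 and 0.20 CPM at 14 hpf.

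**Figure D5:**
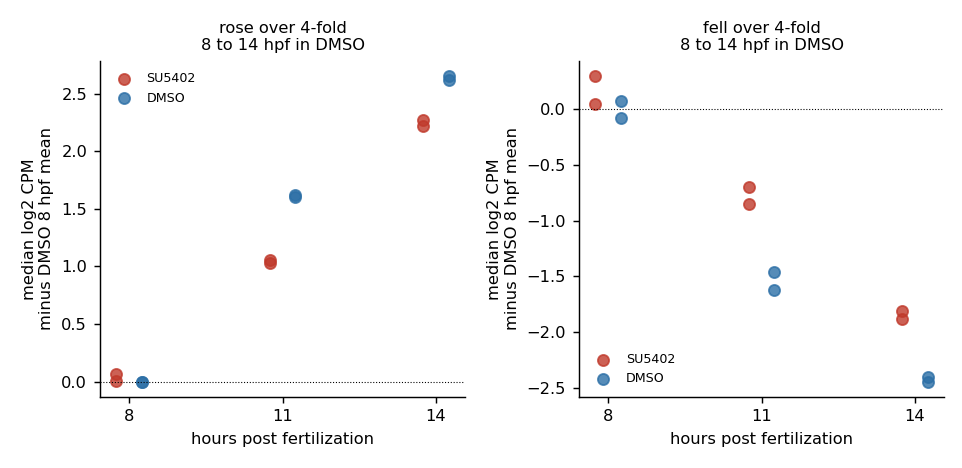
Median log2 CPM relative to the DMSO mean at 8 hpf, against hours post fertilization, for the 7055 contigs that rose over 4-fold (left) and the 7078 that fell over 4-fold (right) from 8 to 14 hpf in DMSO embryos. Each point is 1 library, SU5402 in red and DMSO in blue; at 11 hpf the SU5402 libraries reach 1.03 and 1.06 on the rising contigs against 1.62 and 1.60 in DMSO, and -0.70 and -0.85 on the falling contigs against -1.46 and -1.63.

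Calls at 11 hpf were compared with those at 8 and 14 hpf, which set other libraries against each other within the same fit. The filter, the scaling and the estimate of the spread were shared, so the calls are not independent. A contig with a small estimated spread can pass more easily at every stage, which favours overlap. The overlaps are therefore a description. At 8 hpf 6441 contigs rose and 6731 fell, 8.34% and 8.72% of those tested and 17.1% in all. Of the contigs risen at 11 hpf 46.6% were also risen at 8 hpf, which is 77.3% of the risen list of 8 hpf. Of those fallen at 11 hpf 48.1% were fallen at 8 hpf, or 49.3% of that list. At 14 hpf 10086 contigs rose and 5591 fell, 13.1% and 7.24% of those tested and 20.3% in all. Risen contigs of 11 hpf were risen at 14 hpf in 63.0%, or 66.8% of the list of 14 hpf, and fallen ones were fallen in 36.1%, or 44.6%. Calls in opposite directions were few, with 68 contigs risen at 11 and fallen at 8 hpf, and 89 fallen at 11 and risen at 8 hpf. At 14 hpf there were 80 and 180 such contigs. With scaling factors from contigs over 10 CPM, 10603 contigs rose and 2432 fell at 8 hpf.

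In all, 3813 contigs rose and 1269 fell at all 3 stages, 4.94% and 1.64% of those tested. The shared estimate of the spread favours this overlap too. The contigs risen at 11 hpf had a median log2 fold change of 1.59 at 8, 2.92 at 11 and 2.26 at 14 hpf, and the fallen ones -0.65, -0.96 and -0.48. The contigs were chosen at 11 hpf, so the values of that stage are a description. Late treatment, from 15.5 hpf, had its own 6 h comparison at 21.5 hpf, in which 11% of the contigs tested rose and 10.6% fell, 21.6% in all. The 62963 contigs tested in both held 6513 of the 10694 risen at 11 hpf and 6851 of the 6903 fallen, so many risen contigs drop out here. Of the 6513 risen, 29.8% rose at 21.5 hpf (27.2% of that list) and 6.86% fell. Of the 6851 fallen, 30.0% fell at 21.5 hpf (29.0% of that list) and 6.19% rose. The common biological coefficient of variation was 6.83% in the late fit and 27.2% in the early fit, so smaller changes could pass at 21.5 hpf. With all 24 libraries in the same fit, 3845 contigs rose and 3368 fell at 21.5 hpf, against 12834 and 11651 at 11 hpf. The difference between the 2 treatments was not tested.

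The SU5402 effect at 11 hpf differed from that at 8 hpf at 715 contigs, 0.926% of those tested. It was above the effect at 8 hpf for 372 contigs, 0.482%, and below it for 343, 0.444%. Without the 14 hpf libraries, which enter the filter, the scaling and the estimate of the spread, 68438 contigs were tested and 45 and 33 passed. With DESeq2's size factors the balance turned, to 302 above and 397 below, and with scaling factors from contigs over 10 CPM it was 315 and 427. Leaving out any 1 of the 8 libraries of 8 and 11 hpf gave 42 to 91 contigs above and 55 to 222 below. ContigAmph603 was abundant at 8 hpf, with 734 and 692 CPM in SU5402 and 1632 and 1370 CPM in DMSO embryos. At 11 hpf it had 654 and 651 CPM with SU5402 but 337 and 341 CPM in DMSO. It was thus below DMSO at 8 hpf (log2 fold change -1.07, adjusted p = 0.00013) and above it at 11 hpf (0.94, adjusted p = 0.00017), a difference of 2.02 (SE 0.13, adjusted p = 0.00053). ContigAmph54911 had 3.6 and 2.78 CPM in SU5402 and 0.51 and 0.55 CPM in DMSO embryos at 8 hpf, and its effect at 11 hpf was larger by 5.41 (SE 0.36, adjusted p = 0.00053).

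Contigs with a lower effect at 11 than at 8 hpf included ContigAmph10631 and ContigAmph11557. ContigAmph10631 had 86.1 and 76.2 CPM in SU5402 against 12.2 and 14.4 CPM in DMSO embryos at 8 hpf. At 11 hpf it had 53.1 and 43.8 CPM in SU5402 against 69.2 and 71.6 CPM in DMSO embryos. The log2 fold change was 2.61 at 8 hpf and -0.54 at 11 hpf, a difference of -3.15 (SE 0.18, adjusted p = 0.00048), and both effects passed the test (adjusted p = 1.8e-05 at 8 hpf and 0.013 at 11 hpf). ContigAmph11557 had 135 and 68 reads with SU5402 and 0 reads in both DMSO libraries at 8 hpf, at least 58.0-fold higher against 3 reads over the DMSO pair. At 11 hpf it had 2.66 and 2.18 CPM with SU5402 and 4.33 and 4.86 CPM in DMSO (log2 fold change -0.92, adjusted p = 0.038), and the effects differed (adjusted p = 0.0013). Both contigs were thus above DMSO at 8 hpf and below it at 11 hpf in each SU5402 library.

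Between 11 and 14 hpf the effect differed at 1077 contigs, 1.4% of those tested. It was higher at 14 hpf for 748, 0.969%, and lower for 329, 0.426%. Of the 748, 522 had fallen at 11 hpf, and of the 329, 211 had risen, where 8.94% of all contigs fell and 13.9% rose. The difference and the call at 11 hpf share the libraries of 11 hpf, which favours opposite signs, so these counts are a description. Higher effects at 14 hpf were 69.5% of these contigs here and 51.8% with scaling factors from contigs over 10 CPM. Leaving out any 1 of the 8 libraries of 11 and 14 hpf gave 136 to 818 contigs with a higher and 40 to 126 with a lower effect. ContigAmph96 had 35.3 and 41.9 CPM in SU5402 and 103 and 104 CPM in DMSO embryos at 11 hpf (log2 fold change -1.42, adjusted p = 0.00024). At 14 hpf it had 83.7 and 107 CPM with SU5402 but 16.5 and 15.9 CPM in DMSO, a change of effect of 3.98 (SE 0.22, adjusted p = 0.00026). ContigAmph19400 had 349 and 338 CPM in SU5402 and 326 and 376 CPM in DMSO embryos at 11 hpf, where the groups overlapped. At 14 hpf it had 316 and 331 CPM with SU5402 and 105 and 109 CPM in DMSO, a change of 1.63 (SE 0.13, adjusted p = 0.0014). Both contigs were lower in DMSO embryos at 14 than at 11 hpf, and at 14 hpf both SU5402 libraries were above both DMSO libraries.

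Of the early stages, ContigAmph7207 was above DMSO only at 11 hpf, while its level with SU5402 fell from each stage to the next. In DMSO embryos its level fell from 8 to 11 hpf and was higher again at 14 hpf. It had 266 and 246 CPM in SU5402 and 343 and 304 CPM in DMSO embryos at 8 hpf, where it did not pass the test (log2 fold change -0.34, adjusted p = 0.21). At 11 hpf it had 48.6 and 34.0 CPM with SU5402 and 6.62 and 5.30 CPM in DMSO (log2 fold change 2.80, adjusted p = 2.4e-05). At 14 hpf it had 10.5 and 9.08 CPM with SU5402 and 31.6 and 27.5 CPM in DMSO (log2 fold change -1.59, adjusted p = 0.00028). The effect changed by 3.13 from 8 to 11 hpf (adjusted p = 0.0018) and by -4.39 from 11 to 14 hpf (SE 0.26, adjusted p = 0.00029). ContigAmph14018 had 22.2 and 24.3 CPM in SU5402 and 24.3 and 31.6 CPM in DMSO embryos at 11 hpf (log2 fold change -0.27, adjusted p = 0.2). At 14 hpf it had 17.6 and 18.2 CPM with SU5402 and 179 and 163 CPM in DMSO, a change of effect of -2.99 (SE 0.2, adjusted p = 0.00048).

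The effect at 11 hpf was also set against both neighbours, in the model without a replicate block. In it 23 of the 77193 contigs tested rose at 11 hpf with an effect above that at 8 and at 14 hpf. Another 91 fell with an effect below both. The underlying counts of differences depended on how the replicate number was modelled, and these 2 counts were not recomputed with a block. Both differences share the libraries of 11 hpf, so these counts can hold contigs in which those libraries alone deviate. By calls alone, 2717 contigs, 3.52% of those tested, rose at 11 hpf and were called at neither 8 nor 14 hpf. Another 2237, 2.90%, fell at 11 hpf and were called at neither of these stages. Neither count shows that the effects differed between stages.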

How the data were processed

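RNA was sequenced from whole amphioxus embryos in 24 libraries. The authors deposited raw read counts, whole numbers per transcriptome contig. Per the submitters' processing notes BWA 0.6.1 was used. For the assembly, counting rule and filters the sources used here give nothing. All 24 count columns bear sample titles, and 0 were left unused.

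The deposited counts of the 12 early libraries were fitted with edgeR 4.0.16 (limma 3.58.1, R 4.3.3), with 1 coefficient for each of 6 groups. The filter filterByExpr kept 77193 contigs, which held at least 99.8% of each library's reads, and left out 18901. Library sizes were scaled by trimmed mean of M-values (TMM) factors. The fit had 6 residual degrees of freedom and a common biological coefficient of variation of 27.2%. The 12 late libraries were fitted apart, because their replicates lay closer together (6.83%). Contrasts were tested two-sided with the quasi-likelihood test and adjusted by Benjamini-Hochberg within each contrast, at 0.05. The SE is the size of the log2 fold change divided by the square root of F. Few reads in a group can make it too small. CPM uses TMM-scaled library sizes, and log2 CPM a prior count of 2. A pair with 0 reads was given a limit of 3 reads, for counting error only. The labels' protocols name no molecular identifiers.

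For each test across contigs the 2 contigs above 0 and the 2 below 0 with the smallest p are named. Planned pathway gene lists and tissue markers could not be looked up. The comparison, groups and rules were chosen with earlier results of these data known. The replicates at 11 hpf were separate libraries, with a chi-square per degree of freedom of 7.50 in the SU5402 and 8.04 in the DMSO pair. Alternatives were other scalings, filters, tools (DESeq2 1.42.0, limma-voom), sets of libraries, thinning with a fixed seed and a replicate block.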

Additional observations from a re-analysis of the deposited data

Results flagged for a closer look

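These results were picked out because the SU5402 effect at 11 hpf differed from that at another stage by a test of the difference itself. The effect differed between 11 and 8 hpf at 715 contigs and between 14 and 11 hpf at 1077 (edgeR, adjusted p under 0.05). From 8 to 11 hpf the log2 effect moved by 2.25 at ContigAmph24501, 5.41 at ContigAmph54911, 2.02 at ContigAmph603, 3.13 at ContigAmph7207 and -3.15 at ContigAmph10631. The fitted value of -10.27 at ContigAmph11557 rests on 0 reads in DMSO embryos at 8 hpf and is no bound. From 11 to 14 hpf the log2 effect moved by 1.34 at ContigAmph24501, 0.89 at ContigAmph23744, 3.98 at ContigAmph96, 1.63 at ContigAmph19400, -4.39 at ContigAmph7207 and -2.99 at ContigAmph14018. The change at ContigAmph23744 passed only narrowly (edgeR, adjusted p = 0.049). Stage goes with PCR cycle number and depth, and their part in these differences was not tested.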

How the results depend on the processing

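Each of the 12 results for named contigs kept its direction and its side of the threshold under every alternative run for it. They were picked by the smallest p in these data, which favours such stability, so it does not extend to other calls. Flagged changes of effect that are not among these 12 were not run under the alternatives. Counts of contigs moved, and so did the balance between higher and lower ones. Effects at 11 hpf above and below those of 8 hpf, 372 and 343, were 302 and 397 with DESeq2 size factors and 315 and 427 with scaling factors from contigs over 10 CPM (abundant scaling). The comparison at 11 hpf gave 10694 risen and 6903 fallen contigs, against 11651 fallen with all 24 libraries, 3160 with only its 4 libraries and 3608 with abundant scaling. Leaving out 1 library gave 5276 to 8035 risen and 2876 to 6223 fallen, with 5276 risen and 5351 fallen without DMSO replicate 2. At 8 hpf, with 6441 risen and 6731 fallen, all 24 libraries gave 9873 risen and 10466 fallen and abundant scaling 10603 and 2432. At 14 hpf all 24 libraries gave 9510 fallen, and at 21.5 hpf 3845 risen and 3368 fallen.

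Effects above and below those of 8 hpf numbered 1384 and 1515 with all 24 libraries, 814 and 878 with DESeq2's Wald test, 232 and 142 with limma-voom and 45 and 33 without the 14 hpf libraries. Those above were 246 after thinning and 200 with no filter. Leaving out 1 library gave 42 to 91 above and 55 to 222 below. Effects at 14 hpf above and below those of 11 hpf numbered 3456 and 1579 with all 24 libraries and 1737 and 802 with the Wald test. Those above were 1284 with no filter, and those below 578 with a stricter filter. Leaving out 1 library gave 136 to 818 above and 40 to 126 below. The cause of these changes was not tested.

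With a replicate block the counts were 9992 risen and 7193 fallen at 11 hpf, 394 and 353 against 8 hpf, and 955 and 482 at 14 against 11 hpf. The numbers were not taken as pairs, because each comparison holds only 2 and the labels do not say what they mark. Crossing the numbers of the SU5402 pair of 14 hpf in the block, an alternative chosen after seeing the data, gave 17080 and 13238, 5234 and 2744, and 5004 and 3842.

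Abundant scaling gave 183 fallen contigs under 1 CPM, 1404 at 1 to 10 CPM, 1515 risen and 1605 fallen at 10 to 100 CPM, and 264 risen and 416 fallen over 100 CPM, where library totals gave 173 risen. The share fallen of contigs that fell with age was 1.89% with library totals and 1.15% with abundant scaling, and that of contigs that rose with age 16.8% with abundant scaling. The position of SU5402 embryos on rising contigs was 36.6% with DESeq2 size factors, 43.6% with library totals and 43.7% with abundant scaling, and that of DMSO embryos 60.4%, 61.8% and 58.2%. On falling contigs SU5402 embryos stood at 21.0% with library totals and 21.98% with abundant scaling. The scalings of these shares and positions were also chosen after seeing the data. Over 10 CPM the replicate spread was 17.2% in SU5402 and 20.6% in DMSO embryos. Without thinning, a mean of 55900 contigs in SU5402 and 46512 in DMSO embryos had 10 reads.

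Pairs of libraries limit every comparison, and low counts limit the falls that rare contigs can show.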
